A study of Mus musculus with 9 samples.

Results

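The comparison described here was that of HT22 cells taken through oxygen-glucose deprivation (OGD) and reoxygenation with HT22 cells left without treatment, read across all genes. It covered 13245 of the 54532 gene IDs in the values, those with a mean of at least 0.5 FPKM (fragments per kilobase of gene, scaled to library depth) over the 9 libraries of the series, and 6 of these libraries, 3 of each group. HT22 is a wild-type mouse hippocampal cell line, immortalised and dividing, which mature neurons are not. Cells labelled OGP spent 2 h without oxygen and glucose in a hypoxia chamber and were then given oxygen for 24 h with PBS, the vehicle of the vesicles that the OGE group received. That group entered the fit only to estimate the spread. Control cells had neither deprivation nor PBS. The question was which genes, gene groups and kinds of transcript differed after this day of recovery.

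Loss of oxygen stabilises the transcription factor HIF-1, which raises glucose transport and glycolysis, and the return of oxygen lets prolyl hydroxylases mark HIF-1 for decay again. Protein folding in the endoplasmic reticulum (ER) needs glucose for glycosylation and ATP for chaperones, and cells short of either start the unfolded protein response through the sensors IRE1, PERK and ATF6. ATF6 and XBP1 act on ER stress elements in promoters, while PERK leads to ATF4, which raises amino acid uptake and synthesis. In the brain the same chain of events follows ischaemia and reperfusion, for which OGD with reoxygenation is a cell model.

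The libraries held 16259448 to 19476806 reads in genes, as recovered from the FPKM, and all 6 lay closer to their own group than to the other. Pearson's r across genes was 0.969 to 0.987 between control libraries and 0.985 to 0.986 between OGP libraries, against 0.955 to 0.967 across the groups. The sources do not say whether the libraries of a group were separate cultures, so the spread behind the p-values may be technical. The paper describes the medium after OGD as with exosome-free serum, without serum or with vesicles, and the labels describe it as standard medium, so the serum of OGP cells relative to control is not known and the parts played by OGD, reoxygenation and the changes of medium cannot be told apart. In bulk RNA, fewer cells that make a transcript and less of it per cell cannot be told apart either.

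Among the 13245 genes, 12.1% differed by at least 1.5-fold at an adjusted p of at most 0.05 (limma on log2(FPKM + 0.5), Benjamini-Hochberg), 6.38% higher and 5.74% lower in OGP. These percentages are the background for every count below, and "called" means past both thresholds. In 42.9% of all genes tested the OGP and control values did not overlap, in either direction. That share is the background wherever a lack of overlap is stated below. The median log2 fold change of all genes was 0.01, and the 5% and 95% quantiles were -0.66 and 0.73. Genes called lower went further at the extreme, with 32 at 4-fold or more against 11 called higher. They also started from higher levels, a median of 8.82 FPKM in control against 3.65 for genes called higher and 7.09 for all genes. The 0.5 added to each FPKM understates folds where either group has a low value. The counts at 4-fold therefore depend on these levels as well as on the size of the change. The genes called higher took 6.01% ± 0.257 (SD, n = 3) of the reads in control and 10.6% ± 0.563 in OGP, and those called lower took 8.29% ± 0.245 and 4.33% ± 0.234, differences that the choice of these genes fixed and that are given without a test. Cdkn2aipnl stood just inside the fold threshold at a log2 fold change of 0.59, and Camkk2 just outside it at -0.58, both to 2 decimals.

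**Figure D1:**
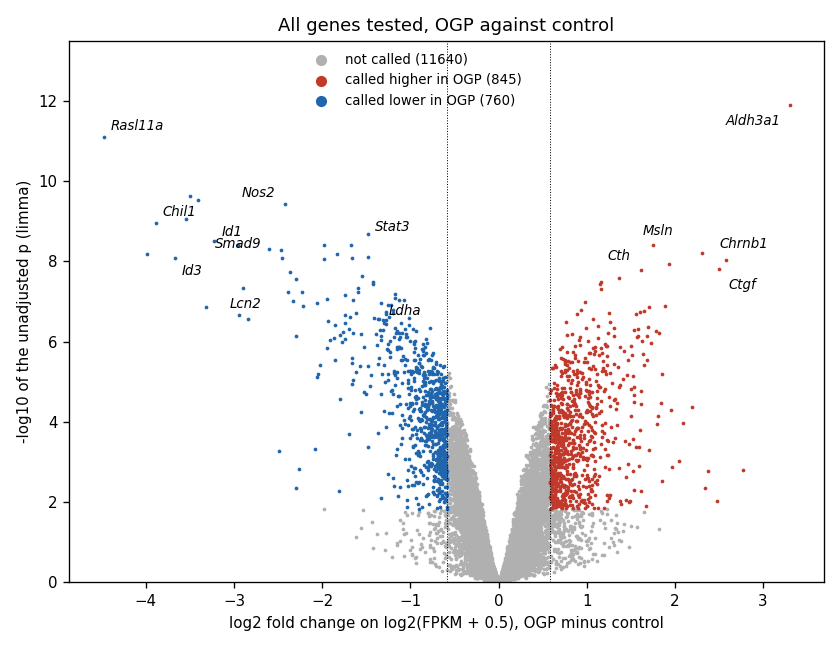
Each point is 1 of the 13245 genes tested, with the log2 fold change of OGP against control on the x axis and -log10 of the unadjusted limma p on the y axis, and dotted lines mark a fold of 1.5. The 845 genes called higher are red and the 760 called lower are blue, and the lower genes reach -4.48 at Rasl11a where the higher ones reach 3.30 at Aldh3a1.

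Gene lists were described by how many of their measured members were called and by their median, beside the same for all genes. The lists with the largest shares called lower were acute-phase and complement genes (10 of 22), glucose uptake and glycolysis (15 of 34), proteases and their inhibitors (11 of 32), ID and BMP signalling (12 of 35), collagens and lysyl oxidases (8 of 24) and the Wnt pathway (11 of 38). The list with the largest share called higher was that of small nucleolar RNA host genes (9 of 15). Several large housekeeping groups had few calls, with 1 of 37 proteasome subunits, 2 of 52 translation initiation factors, 4 of 85 nucleolar factors and 2 of 27 enzymes of the pyruvate dehydrogenase and citric acid cycle called in either direction.

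**Figure D2:**
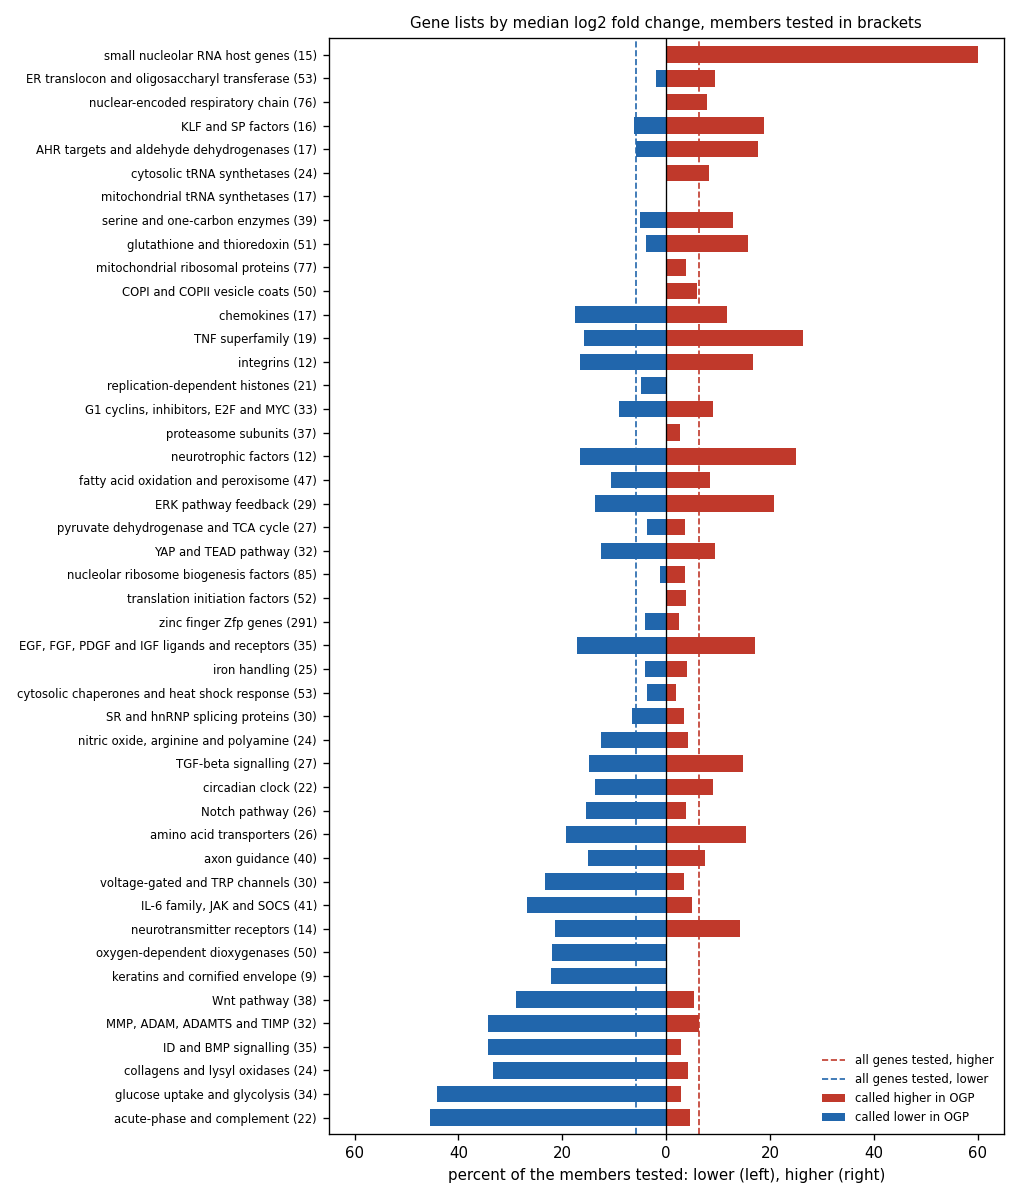
Bars give the percent of the tested members of each gene list called higher (red, right) or lower (blue, left) in OGP, ordered by the list's median log2 fold change, and dashed lines mark the percent over all genes tested (6.38 higher, 5.74 lower). The bars run from small nucleolar RNA host genes at the top (60% higher) to acute-phase and complement genes at the bottom (45.5% lower).

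Some genes of entry into the secretory pathway were called higher, though few of the lists' members were. Sec61g, the small subunit of the channel through which new proteins enter the ER, had 39.9, 56.6 and 44.1 FPKM in control and 91.9, 106 and 111 in OGP (log2 fold change 1.14, SE 0.14, adjusted p = 4.58e-04, limma). Magt1, a subunit of the oligosaccharyl transferase that attaches glycans, had 28.3, 19.4 and 22.6 FPKM in control and 44.4, 49.1 and 49.1 in OGP (log2 fold change 1.02, SE 0.13, adjusted p = 5.84e-04, limma). Ostc, another subunit of that enzyme, had 76.1, 67.1 and 64.4 FPKM in control and 106, 128 and 128 in OGP (log2 fold change 0.79, SE 0.10, adjusted p = 6.41e-04, limma). In each of these genes every OGP library stood above every control library, where 42.9% of all genes tested had no overlap in either direction. Over the 53 genes of the translocon, signal recognition particle, signal peptidase and oligosaccharyl transferase, 5 were called higher and 1 lower, a share higher of 9.43% against 6.38% of all genes, and the median was 0.27. Without control replicate 1 the count of higher genes was 9. The gene called lower was Spcs3, a signal peptidase subunit, with 214, 159 and 158 FPKM in control and 94.2, 110.5 and 109 in OGP (log2 fold change -0.74, SE 0.15, adjusted p = 0.00566, limma), and it overlaps Asb5 on the opposite strand. Sec61a1, the channel's main subunit, was not called (0.11, adjusted p = 0.296, limma). Of 50 vesicle coat and cargo genes between ER and Golgi, 3 were called higher and 0 lower, with 14 and 7 at an unadjusted limma p under 0.05 alone. Tmed3, a cargo receptor of the p24 family, had 17.8, 19.6 and 20.9 FPKM in control and 31.7, 33.4 and 34.2 in OGP (log2 fold change 0.76, SE 0.08, adjusted p = 2.08e-04, limma), and Sec16b, a scaffold of ER exit sites, and Bet1, a fusion protein of ER vesicles, had log2 fold changes of 0.77 and 0.86.

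Promoter letters were read because genes of ER folding and of amino acid supply have known control elements. RefSeq promoters of GRCm38.p6, from 250 bases before to 50 after the start, were matched for 9028 of the genes tested. The ER stress element, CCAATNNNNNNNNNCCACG on either strand, was found in 14 of these promoters (0.155%). Of those 14 genes 7 were called higher and 0 lower, and the element was in 1.34% of the promoters of genes called higher and in 0% of those of genes called lower. The 7 are shown because they carry the element and were called. Each stretch runs 5′ to 3′ on the gene's strand around the match nearest the start, with the element in capitals, read in its reverse complement where it begins with CGTGG.
Hspa5, chr2:34771985-34772083, plus strand: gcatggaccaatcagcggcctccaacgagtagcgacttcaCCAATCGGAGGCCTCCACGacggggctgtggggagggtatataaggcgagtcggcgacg
Hsp90b1, chr10:86705493-86705591, minus strand: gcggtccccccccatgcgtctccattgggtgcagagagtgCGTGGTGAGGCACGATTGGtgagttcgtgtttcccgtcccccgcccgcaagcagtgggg
Pdia6, chr12:17266451-17266549, plus strand: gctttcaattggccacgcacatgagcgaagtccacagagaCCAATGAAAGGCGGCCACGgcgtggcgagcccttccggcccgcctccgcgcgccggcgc
Calr, chr8:84847035-84847133, minus strand: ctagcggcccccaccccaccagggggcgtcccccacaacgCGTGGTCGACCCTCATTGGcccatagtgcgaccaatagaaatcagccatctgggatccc
Dnajc3, chr14:118937787-118937885, plus strand: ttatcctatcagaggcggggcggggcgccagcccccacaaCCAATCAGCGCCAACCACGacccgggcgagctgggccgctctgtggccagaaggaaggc
Creld2, chr15:88819480-88819578, plus strand: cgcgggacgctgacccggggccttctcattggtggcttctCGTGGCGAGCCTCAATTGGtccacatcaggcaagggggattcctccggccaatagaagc
Derl3, chr10:75893202-75893300, plus strand: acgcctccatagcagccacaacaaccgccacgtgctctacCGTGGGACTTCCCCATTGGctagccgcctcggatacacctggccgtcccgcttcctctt

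The 7 genes encode ER chaperones and quality control proteins. Hsp90b1, the ER member of the HSP90 family, had 328, 217 and 265 FPKM in control and 466, 482 and 537 in OGP (log2 fold change 0.89, SE 0.14, adjusted p = 0.00206, limma). Pdia6, a disulfide isomerase, had 112, 121 and 142 FPKM in control and 226, 207 and 221 in OGP (log2 fold change 0.81, SE 0.10, adjusted p = 4.79e-04, limma). Creld2, a secreted ER stress protein, had 54.5, 68.4 and 65.9 FPKM in control and 123.5, 105 and 119.7 in OGP (log2 fold change 0.88, SE 0.11, adjusted p = 5.48e-04, limma). None of the OGP libraries overlapped a control library in these genes. Dnajc3, a cochaperone of the ER, had 32.2, 24.7 and 25.4 FPKM in control and 47.6, 46.8 and 46.8 in OGP (log2 fold change 0.78). Derl3, which takes part in moving misfolded proteins out of the ER, was at 0.0575, 0.296 and 0.270 FPKM in control and 1.88, 1.29 and 1.33 in OGP (log2 fold change 1.501), close to the lower limit of the test in control. Calr, the lectin chaperone calreticulin, had 382, 406 and 368 FPKM in control and 608, 547 and 617 in OGP (log2 fold change 0.61), a call lost in 3 of 19 alternatives. Of the other 7 genes with the element, Canx and Syvn1, also of ER quality control, stood at 0.39 and 0.34 below the fold threshold, and Pan2, Hnrnpa3, Alg12, Acacb and Gm6566 had log2 fold changes from -0.21 to 0.33. A match of letters is a description and not a bound site.

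Amino acid supply was called in both directions, by transporter. Slc7a11, which takes up cystine in exchange for glutamate, had 2.88, 2.07 and 2.14 FPKM in control and 5.88, 5.36 and 5.17 in OGP (log2 fold change 1.07, SE 0.11, adjusted p = 2.14e-04, limma). Slc7a1, a carrier of arginine and lysine, had 6.34, 5.71 and 6.25 FPKM in control and 14.01, 10.6 and 11.03 in OGP (log2 fold change 0.90, SE 0.10, adjusted p = 3.78e-04, limma), and Slc6a9, which carries glycine, had 3.01, 3.50 and 3.76 FPKM in control and 9.39, 6.68 and 6.66 in OGP (log2 fold change 1.03, SE 0.14, adjusted p = 8.50e-04, limma), although it overlaps B4galt2 on the other strand. Slc1a4, a carrier of neutral amino acids, stood at 0.62. In the opposite direction, Slc1a3, the glutamate transporter typical of astrocytes, had 10.9, 9.22 and 9.19 FPKM in control and 3.98, 5.54 and 4.71 in OGP (log2 fold change -0.98, SE 0.13, adjusted p = 8.30e-04, limma). Slc7a2, Slc7a6 and the taurine carrier gene Slc6a6 fell by 0.70, 0.68 and 0.68 on the log2 scale. In all 4 of the 26 amino acid transporters tested were called higher and 5 lower. Among enzymes of serine, one-carbon and transamination pathways the counts were 5 higher and 2 lower of 39. Mthfd2, the mitochondrial folate enzyme, had 19.2, 21.4 and 20.1 FPKM in control and 39.5, 34.3 and 38.3 in OGP (log2 fold change 0.87, SE 0.08, adjusted p = 1.09e-04, limma). Bcat1, which transfers amino groups from branched-chain amino acids, and Gpt2, which makes alanine, had 0.64 and 0.63. Glul, which makes glutamine from glutamate, had 23.0, 29.3 and 25.6 FPKM in control and 13.04, 13.46 and 12.999 in OGP (log2 fold change -0.95, SE 0.12, adjusted p = 5.17e-04, limma). Phgdh and Psat1, the first steps of serine synthesis, stood at 0.38 and 0.27 and were not called at 1.5-fold. Tars and Cars, which load threonine and cysteine onto tRNA, were the 2 cytosolic synthetases called higher of 24, at 0.70 and 0.62, and no more than 1 of 17 mitochondrial synthetases was called under any setting.

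The ATF4 element searched, TGATGCAA on either strand, was found in 50 of the 9028 promoters (0.554%). It was in 1.92% of the promoters of genes called higher and in 0.563% of those called lower, from 10 and 3 genes. Slc7a11, Tars and Nupr1, a stress-induced chromatin protein gene, are shown as the 3 with the smallest p among those called higher, a choice made after their values were seen.
Slc7a11, chr3:50443614-50443700, minus strand: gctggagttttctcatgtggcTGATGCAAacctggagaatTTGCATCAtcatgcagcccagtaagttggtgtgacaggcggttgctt
Tars, chr15:11399659-11399713, minus strand: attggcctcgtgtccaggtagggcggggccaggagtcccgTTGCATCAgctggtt
Nupr1, chr7:126625533-126625620, minus strand: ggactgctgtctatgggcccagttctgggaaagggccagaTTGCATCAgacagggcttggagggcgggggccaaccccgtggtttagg

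The Slc7a11 stretch holds 2 matches in opposite directions. Nupr1 had 14.6, 16.7 and 16.5 FPKM in control and 39.6, 41.4 and 44.3 in OGP (log2 fold change 1.37, SE 0.08, adjusted p = 1.17e-05, limma), and Tars had 47.1, 44.9 and 48.7 FPKM in control and 76.6, 75.4 and 77.9 in OGP (log2 fold change 0.70, SE 0.06, adjusted p = 1.17e-04, limma), with each OGP library of both above each control library. The other genes called higher with these letters were Fancl, Herpud1, Slc1a4, Avil, Sfn, Fgf21 and Sfxn4, and those called lower were Arid5b, Rhobtb1 and Gm14632. Fgf21, an endocrine fibroblast growth factor, was at 1.51, 0.868 and 1.07 FPKM in control and 2.02, 2.44 and 3.10 in OGP (log2 fold change 0.88, SE 0.18, adjusted p = 0.00700, limma).

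Glycolysis was called lower along most of its length after 24 h of reoxygenation. Slc2a1, the glucose transporter GLUT1, had 26.2, 28.8 and 28.3 FPKM in control and 16.1, 13.1 and 14.9 in OGP. Pfkl, a subunit of phosphofructokinase, the pacemaker of the pathway, had 35.6, 54.9 and 52.3 FPKM in control and 25.9, 23.0 and 24.2 in OGP (log2 fold change -0.93), and Pfkp, another subunit, stood at -0.82. Pfkfb3, whose product activates phosphofructokinase, had 5.65, 4.52 and 5.17 FPKM in control and 1.41, 1.251 and 0.886 in OGP, the largest fold of the list. At the steps after aldolase, Pgk1 (ENSMUSG00000062070, chromosome X from 106187100 to 106203699 of mm10) had 614, 787 and 769 FPKM in control and 368, 365 and 379 in OGP (log2 fold change -0.95, SE 0.11, adjusted p = 3.55e-04, limma). Pgam1 had 319, 382 and 351 FPKM in control and 196, 179 and 183 in OGP (log2 fold change -0.91, SE 0.09, adjusted p = 1.45e-04, limma), and Eno1 had 395, 434 and 413 FPKM in control and 271, 247 and 280.2 in OGP (log2 fold change -0.64, SE 0.08, adjusted p = 5.84e-04, limma). The last step to lactate, by Ldha (ENSMUSG00000063229, chromosome 7 from 46841475 to 46855627 of mm10), had 623, 764 and 736 FPKM in control and 307, 310.3 and 323 in OGP (log2 fold change -1.17, SE 0.09, adjusted p = 6.40e-05, limma). Slc16a3, which exports lactate, had 1.51, 2.36 and 2.52 FPKM in control and 0.788, 0.826 and 0.531 in OGP (log2 fold change -1.10, SE 0.18, adjusted p = 0.00204, limma), while the lactate carrier gene Slc16a1 was not called (-0.13). Control replicate 1 was the lowest of the control libraries in Pfkl, Pgk1, Ldha and Slc16a3, and still lay above every OGP library in each of them.

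Of the 34 gene IDs of the list, 15 were called lower and 1 higher, and the median log2 fold change was -0.49 against 0.01 for all genes. The number called lower was 13 to 17 over all alternatives. Aldoa is present under 2 gene IDs, of which the minor one was called only just (adjusted p = 0.0498, limma) and not in 11 of 19 alternatives. The calls of Hk1 and Ldhb were lost in 2 and 5 alternatives, and that of Aldoc, the member called higher, in 4. Pkm, Tpi1 and Gpi1 had adjusted p of 0.0314, 0.00796 and 0.0150 with log2 fold changes of -0.45, -0.57 and -0.41, short of 1.5-fold, and Hk2 stood at 0.08 (adjusted p = 0.636, limma). Gapdh, a common reference gene, cannot be read in these values. It was listed at 5.63, 4.82 and 48.0 FPKM in control and 29.6, 4.53 and 5.77 in OGP, a spread of about an order of magnitude within each group, and it has many pseudogenes that could share its reads. Gys1, the muscle-type glycogen synthase gene that was also in the list, stood at -0.69 and overlaps Ruvbl2 on the other strand, as Pfkp overlaps Pitrm1.

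**Figure D3:**
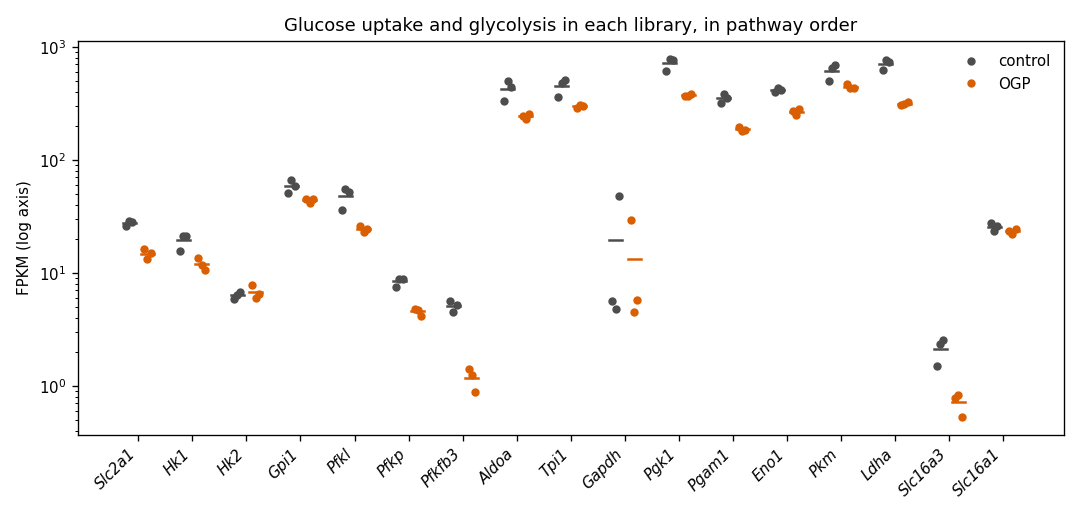
FPKM on a log axis for 17 genes of glucose uptake and glycolysis in pathway order, with 1 point per library (grey control, orange OGP) and a bar at each group's mean. Ldha shows 3 control points of 623 to 764 above 3 OGP points of 307 to 323, and Gapdh shows 1 library far above the other 2 in each group.

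Promoters of glycolytic genes are textbook sites of HIF-1, whose core was searched on both strands in 2 forms. The form GCGTG was in 55.9% of the 34 glycolysis promoters and 53.6% of all 9028. The form ACGTG was in 44.1% of the glycolysis promoters, where 26.4% of all promoters, 26.4% of those of genes called higher and 22.3% of those of genes called lower held it. The share was not particular to glycolysis. It was 64.4% for vesicle coat genes, 50% for voltage-gated and TRP channels and 47.1% for the circadian clock. Other lists were lower, such as mitochondrial ribosomal proteins at 22.1%. Ldha and Pgk1 are shown, as the pair with the largest fall in FPKM among the list's called genes, with every ACGTG match in the stretch in capitals.
Ldha, chr7:46845730-46845803, plus strand: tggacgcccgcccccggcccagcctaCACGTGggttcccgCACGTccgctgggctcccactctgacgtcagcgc
Pgk1, chrX:106186929-106187013, plus strand: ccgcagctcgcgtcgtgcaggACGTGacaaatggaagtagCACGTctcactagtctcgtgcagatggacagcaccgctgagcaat

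Oxygen-dependent dioxygenases, the enzymes that use oxygen and 2-oxoglutarate to hydroxylate proteins or to remove methyl groups, gave 11 genes called lower and 0 called higher of 50, with a median of -0.26. At an unadjusted limma p under 0.05 alone, 25 were lower and 4 higher. Collagen-modifying enzymes, oxygen sensors and demethylases were among them. The collagen prolyl hydroxylases P4ha1, P4ha2 and P4ha3 were all called lower. P4ha1 fell by 0.61 and P4ha2 by 0.87 in log2 terms, and P4ha3 had 27.2, 28.5 and 29.96 FPKM in control and 13.2, 12.5 and 10.96 in OGP (log2 fold change -1.20, SE 0.09, adjusted p = 3.71e-05, limma). Egln1, the prolyl hydroxylase PHD2 that marks HIF-1 for decay, had 30.9, 38.0 and 36.7 FPKM in control and 18.9, 18.3 and 20.5 in OGP (log2 fold change -0.85, SE 0.10, adjusted p = 3.75e-04, limma). Egln3, a related enzyme, stood at -0.37, below the fold threshold, and Egln2 at 0.06. The histone and DNA demethylases called lower were Kdm5b, Kdm4b, Kdm6b, Kdm7a, Phf2 and Tet3, of which Kdm5b had 4.01, 3.15 and 3.82 FPKM in control and 1.64, 1.71 and 1.71 in OGP (log2 fold change -0.92, SE 0.10, adjusted p = 2.65e-04, limma) and Tet3 had 5.77, 5.88 and 6.94 FPKM in control and 3.86, 3.31 and 3.28 in OGP (log2 fold change -0.75, SE 0.10, adjusted p = 8.94e-04, limma). The collagen lysyl hydroxylase gene Plod3 stood at -0.79. The number called lower was 9 to 13 over all alternatives, and the calls of P4ha1, Kdm4b and Kdm7a were among those that changed.

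Nuclear genes of mitochondria had few calls. Of 76 respiratory chain subunits 6 were called higher and 0 lower, which is 7.89% against 6.38% of all genes. The list's median was 0.22, and at an unadjusted limma p under 0.05 alone 29 were higher and 2 lower. Uqcrb, a subunit of complex III, had 64.6, 59.7 and 57.3 FPKM in control and 86.5, 103 and 102 in OGP (log2 fold change 0.67, SE 0.13, adjusted p = 0.00423, limma), and Atp5s, an ATP synthase coupling factor, had 3.37, 3.70 and 3.14 FPKM in control and 4.73, 6.35 and 6.18 in OGP (log2 fold change 0.67, SE 0.11, adjusted p = 0.00266, limma). The count rested on single libraries. It was 15 without control replicate 2 and 14 without OGP replicate 1, but 3 without either control replicate 1 or OGP replicate 3, and 12 under median centring. Without control replicate 1 the median was 0.06 and 2 were called lower. Of 77 mitochondrial ribosomal proteins, 3 were called higher (5 without control replicate 2, 1 without OGP replicate 3) and 0 lower, with a median of 0.13. That median was 0.06, with 1 called lower, without control replicate 1, and 0.25 without control replicate 2. Pdp1, a phosphatase that activates pyruvate dehydrogenase, had 4.61, 3.70 and 3.82 FPKM in control and 7.45, 9.05 and 8.34 in OGP (log2 fold change 0.95, SE 0.10, adjusted p = 2.71e-04, limma), and Pdk1, the kinase with the opposite action, stood at -0.36 without a call. Cpt1a, which brings fatty acids into mitochondria, had 29.1, 29.6 and 28.3 FPKM in control and 19.0, 16.6 and 16.5 in OGP (log2 fold change -0.73, SE 0.08, adjusted p = 2.29e-04, limma). Acox2, an oxidase of branched fatty acids and bile acid intermediates in peroxisomes, had 0.541, 0.684 and 0.726 FPKM in control and 5.47, 5.37 and 4.78 in OGP (log2 fold change 2.31, SE 0.11, adjusted p = 4.94e-06, limma). Fatty acid oxidation and peroxisomes gave 4 higher and 5 lower of 47 in all.

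Inhibitors of DNA binding and the BMP pathway were called lower together with pathway feedback genes. The BMP pathway signals through SMAD1, SMAD5 and SMAD9 to genes that include the ID family, whose proteins hold back helix-loop-helix factors. Id3 (ENSMUSG00000007872, chromosome 4 from 136143497 to 136145755 of mm10) had 177, 275 and 239 FPKM in control and 15.3, 21.6 and 15.8 in OGP (log2 fold change -3.67, SE 0.19, adjusted p = 5.05e-06, limma). Id2 had 33.4, 26.3 and 22.7 FPKM in control and 3.98, 5.31 and 5.19 in OGP (log2 fold change -2.39, SE 0.15, adjusted p = 1.94e-05, limma). Smad9, a signal carrier that is also induced by the pathway, had 6.19, 5.28 and 5.41 FPKM in control and 0.602, 0.569 and 0.675 in OGP (log2 fold change -2.46, SE 0.12, adjusted p = 5.05e-06, limma). The values of the control libraries were several-fold above those of the OGP libraries in each of these genes, with no overlap. Smad6, an inhibitor of the pathway, had 10.2, 15.02 and 16.7 FPKM in control and 6.79, 6.42 and 6.19 in OGP (log2 fold change -1.03, SE 0.16, adjusted p = 0.00186, limma). Msx1, a homeobox gene, had 16.5, 22.1 and 21.6 FPKM in control and 5.51, 6.31 and 5.65 in OGP (log2 fold change -1.69, SE 0.14, adjusted p = 6.58e-05, limma), and Dlx2, another, fell by 1.14 on the log2 scale. Alpl, the alkaline phosphatase of bone and a common readout of BMP signalling, had 4.70, 5.71 and 4.17 FPKM in control and 0.564, 0.636 and 0.548 in OGP (log2 fold change -2.30, SE 0.13, adjusted p = 1.18e-05, limma). Atoh8, a helix-loop-helix factor gene, had 29.4, 46.2 and 42.3 FPKM in control and 7.74, 8.79 and 7.23 in OGP (log2 fold change -2.22, SE 0.15, adjusted p = 3.05e-05, limma).

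Secreted antagonists of the pathway were called lower too. Fst, which encodes follistatin, a binder of activins and BMPs, had 5.54, 5.30 and 5.02 FPKM in control and 1.002, 1.29 and 1.41 in OGP (log2 fold change -1.75, SE 0.13, adjusted p = 4.14e-05, limma), and Bmper had 9.93, 8.35 and 8.59 FPKM in control and 4.35, 4.31 and 4.58 in OGP (log2 fold change -0.94, SE 0.08, adjusted p = 9.08e-05, limma). Fstl3, Gdf11 and the activin receptor gene Acvr1b fell by 0.73, 0.97 and 1.04 on the log2 scale. Bmp6, a ligand, was called higher, with 0.969, 1.28 and 1.24 FPKM in control and 3.17, 2.77 and 2.49 in OGP (log2 fold change 0.99, SE 0.12, adjusted p = 5.17e-04, limma), and it overlaps Txndc5 on the other strand. Bmp4, Bmpr1a, Bmpr2 and Smad5 were not called, at -0.35, 0.01, -0.28 and -0.13, and Smad1 stood at -0.45 (adjusted p = 0.00513, limma), short of the fold threshold. Over the list of 35, 12 were called lower and 1 higher, with a median of -0.35, and 12 or 13 were lower under each of 19 alternatives.

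**Figure D4:**
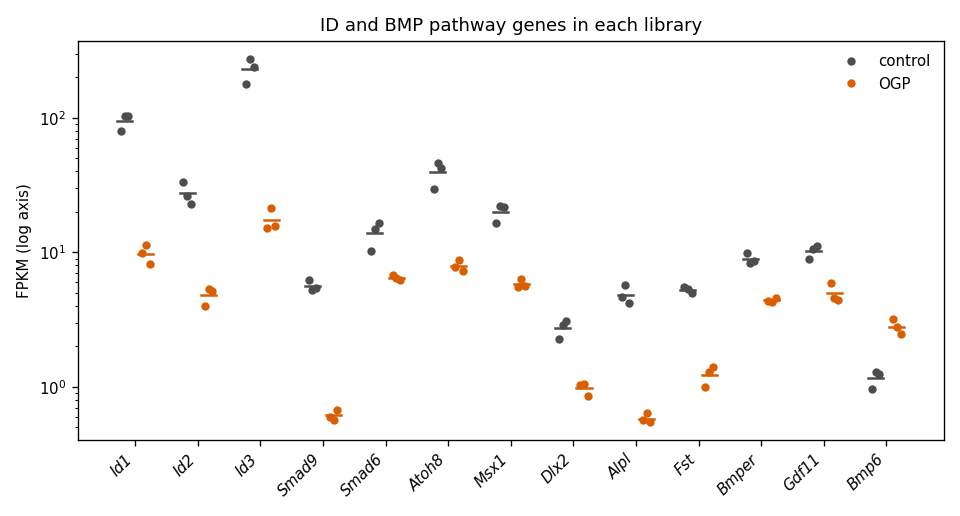
FPKM on a log axis for 13 ID and BMP pathway genes, with 1 point per library (grey control, orange OGP) and a bar at each group's mean. The OGP points lie below the control points for all genes shown but Bmp6, as for Id3 at 15.3 to 21.6 against 177 to 275. The genes were picked with their values known, so these directions were fixed by the choice. Of the list's 35 genes, 22 were not called and 11 had log2 fold changes above 0.

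The Wnt pathway, in which secreted Wnt ligands act through Frizzled receptors on TCF factors, had 11 of 38 members called lower and 2 higher, with a median of -0.33. Rspo3, a secreted amplifier of Wnt signals, had 28.8, 22.0 and 19.5 FPKM in control and 6.47, 7.27 and 8.81 in OGP (log2 fold change -1.57, SE 0.16, adjusted p = 2.18e-04, limma). Wnt4, a ligand, had 3.44, 5.06 and 5.07 FPKM in control and 1.32, 1.09 and 1.26 in OGP (log2 fold change -1.53, SE 0.19, adjusted p = 5.34e-04, limma), and the receptor gene Fzd4 had 2.39, 2.11 and 2.39 FPKM in control and 0.834, 0.827 and 0.731 in OGP (log2 fold change -1.11, SE 0.11, adjusted p = 1.78e-04, limma). Tcf7 and Notum, targets as well as members of the pathway, fell by 1.10 and 1.09 on the log2 scale. Fzd7, Lrp5 and Wnt5b were also lower, at -0.72, -0.69 and -0.93. Lgr6, a receptor of R-spondins, and Wnt9a were called higher from low levels, Lgr6 with 0.284, 0.163 and 0.251 FPKM in control and 1.32, 1.11 and 1.01 in OGP. Ctnnb1, which encodes beta-catenin, was not called (-0.04, adjusted p = 0.753, limma). The Notch pathway gave 4 lower and 1 higher of 26. Notch3 had 4.88, 5.91 and 6.45 FPKM in control and 2.39, 2.33 and 1.65 in OGP (log2 fold change -1.26, SE 0.14, adjusted p = 2.72e-04, limma), and Lfng, a glycosyltransferase that tunes Notch receptors, stood at -0.90.

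Genes of TGF-beta signalling were called in both directions, 4 higher and 4 lower of 27. Snai1, a repressor of epithelial genes, had 2.90, 3.93 and 3.15 FPKM in control and 0.530, 0.339 and 0.379 in OGP (log2 fold change -2.06, SE 0.14, adjusted p = 2.87e-05, limma). Pmepa1, a feedback inhibitor, had 4.51, 5.54 and 4.23 FPKM in control and 11.98, 12.001 and 12.4 in OGP (log2 fold change 1.27, SE 0.10, adjusted p = 5.29e-05, limma), and Smad3, a signal carrier of this branch, had 12.7, 14.2 and 13.9 FPKM in control and 24.9, 22.2 and 20.8 in OGP (log2 fold change 0.71, SE 0.09, adjusted p = 5.74e-04, limma). The ligand genes Tgfb2 and Tgfb3 stood at log2 fold changes of -0.68 and -0.95, and the receptor genes Tgfbr1 and Tgfbr2 were not called (0.14 and -0.06). Smad3 and Smad9, carriers of the 2 branches, thus differed from control in opposite directions.

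Feedback genes and effectors of the ERK pathway were likewise divided, with 6 called higher and 4 lower of 29. Etv4, an ETS factor gene that ERK signalling induces, had 1.94, 2.41 and 3.24 FPKM in control and 10.1, 7.14 and 8.91 in OGP (log2 fold change 1.61, SE 0.22, adjusted p = 8.50e-04, limma), and Etv5, of the same family, rose by 1.93. Spry1, an inhibitor of receptor signals, had 3.82, 3.29 and 3.02 FPKM in control and 7.94, 7.08 and 8.01 in OGP (log2 fold change 1.08, SE 0.10, adjusted p = 1.44e-04, limma). Dusp4, a phosphatase of ERK, had 1.505, 1.98 and 2.16 FPKM in control and 6.14, 4.63 and 5.36 in OGP (log2 fold change 1.31, SE 0.17, adjusted p = 7.07e-04, limma), whereas Dusp6 was not called (0.33) and Spry2 stood at -0.01. Errfi1, an inhibitor of the EGF receptor, fell by 0.66. Among ligands and receptors of the EGF, FGF, PDGF and IGF families, 6 were called higher and 6 lower of 35. Igfbp7, which encodes an IGF-binding protein, had 21.2, 26.3 and 25.2 FPKM in control and 57.8, 48.2 and 55.95 in OGP (log2 fold change 1.14, SE 0.11, adjusted p = 1.49e-04, limma), and Igfbp4 rose by 1.21. The adaptor genes Irs1 and Irs2 stood at 0.93 and 0.76 and the receptor gene Egfr at 0.85. The ligands Areg, Fgf10, Pdgfa and Pdgfc fell by 0.98, 0.76, 0.65 and 0.66, and the receptor gene Pdgfra by 0.80.

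Of the YAP and TEAD pathway, 3 members were called higher and 4 lower of 32. Ctgf and Ankrd1, targets of YAP, had log2 fold changes of 2.50 and 0.83, and Ankrd1 had 38.6, 34.4 and 35.5 FPKM in control and 64.8, 64.8 and 64.2 in OGP. Cyr61, a target usually named beside Ctgf, had 345, 441 and 354 FPKM in control and 400.5, 407 and 421 in OGP and was not called (0.12, adjusted p = 0.445, limma). The TEAD site GGAATG was in 11.5% of all promoters, 14.6% of those of genes called higher and 12.01% of those called lower. Klf4 and Klf11, zinc finger factors, stood at 0.99 and 0.90, and Klf10 at -0.66, among 3 called higher and 1 lower of 16 genes of the KLF and SP family. Regulators of G1 gave 3 of 33 in each direction. Ccnd1, the D-type cyclin of G1 entry, had 9.67, 9.98 and 10.3 FPKM in control and 26.9, 23.1 and 21.3 in OGP (log2 fold change 1.21, SE 0.15, adjusted p = 4.86e-04, limma), while Ccnd3 and Ccne1 fell by 0.86 and 0.79 on the log2 scale. Cdkn1a, which encodes the inhibitor p21, had 2.40, 2.44 and 2.01 FPKM in control and 4.35, 4.83 and 3.80 in OGP (log2 fold change 0.79, SE 0.12, adjusted p = 0.00125, limma). Myc stood at 0.42 and was not called at 1.5-fold, and Mnt, an antagonist of MYC, had 2.52, 3.73 and 4.48 FPKM in control and 11.1, 9.29 and 8.72 in OGP (log2 fold change 1.35, SE 0.18, adjusted p = 8.28e-04, limma). Of 21 replication-dependent histones 1 was called lower, a call lost in 8 alternatives, though these transcripts mostly lack the poly(A) tail by which RNA was selected.

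In the list of IL-6 family, JAK and SOCS genes, which holds cytokine receptors and their signal carriers, 11 of 41 were called lower, 2 higher and 28 in neither direction, with a median of -0.24. Il6 (ENSMUSG00000025746, chromosome 5 from 30013114 to 30019981 of mm10) had 16.4, 14.8 and 10.9 FPKM in control and 1.93, 3.57 and 3.62 in OGP (log2 fold change -2.06, SE 0.23, adjusted p = 3.02e-04, limma). Osmr, the receptor subunit of oncostatin M, had 24.7, 15.3 and 18.1 FPKM in control and 6.12, 6.69 and 6.61 in OGP (log2 fold change -1.49, SE 0.15, adjusted p = 2.14e-04, limma). Il13ra1, of the IL-4 and IL-13 receptors, had 96.8, 67.3 and 76.1 FPKM in control and 29.0, 34.6 and 31.0 in OGP (log2 fold change -1.32, SE 0.14, adjusted p = 2.76e-04, limma). Il1r1 and Il4ra, receptors of IL-1 and IL-4, fell by 0.97 and 1.23 on the log2 scale. Socs3, a feedback inhibitor of cytokine signals, had 41.2, 58.7 and 55.0 FPKM in control and 24.1, 20.04 and 18.0 in OGP (log2 fold change -1.29, SE 0.15, adjusted p = 3.75e-04, limma), and Socs2 fell by 0.98. Stat5b stood at -0.68, and the shared receptor subunit gene Il6st at -0.54 (adjusted p = 0.00294, limma) lay just short of the fold threshold. Jak1 and Jak2 were not called (-0.32 and 0.15). Lif, a cytokine of the same family, was called higher, with 3.11, 2.93 and 3.38 FPKM in control and 5.19, 5.58 and 5.38 in OGP (log2 fold change 0.70, SE 0.12, adjusted p = 0.00293, limma). The STAT site TTCNNNGAA was in 6.69% of all promoters, 7.85% of those of genes called higher and 6.94% of those called lower.

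Acute-phase genes had the lowest median of all lists, -0.66, with 10 called lower and 1 higher of 22. Ptx3, a long pentraxin that binds complement, was the gene with the largest fall in FPKM of all genes called, with 556, 625 and 649 FPKM in control and 199.96, 215 and 207 in OGP (log2 fold change -1.55, SE 0.09, adjusted p = 1.06e-05, limma). Lbp, which binds lipopolysaccharide, had 12.9, 13.3 and 13.8 FPKM in control and 4.297, 5.12 and 4.71 in OGP (log2 fold change -1.41, SE 0.11, adjusted p = 4.67e-05, limma). Saa3, a serum amyloid A gene, had 31.3, 46.0 and 42.4 FPKM in control and 16.6, 16.0 and 18.1 in OGP (log2 fold change -1.20, SE 0.15, adjusted p = 5.75e-04, limma). None of the OGP libraries came near a control library in these 3 genes. Serpina3n, Serpina3h and Serpina3i, close paralogs that could share reads, fell by 1.91, 1.07 and 0.97, and Orm1 and Orm2, likewise paralogs, by 3.32 and 0.97. The copper carrier gene Cp was the one called higher (0.63), a call lost without control replicate 2. C3, the central complement component, was not called, at 23.7, 21.6 and 23.7 FPKM in control and 25.0, 21.4 and 22.3 in OGP. Nos2, the inducible nitric oxide synthase of inflamed cells, had 54.8, 54.4 and 53.3 FPKM in control and 10.1, 9.26 and 9.79 in OGP (log2 fold change -2.42, SE 0.09, adjusted p = 9.75e-07, limma), with a range within each group of under 2 FPKM.

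Chemokines went both ways, with 2 called higher and 3 lower of 17. Ccl2, which attracts monocytes, had 349, 397 and 401 FPKM in control and 634, 680.0 and 683 in OGP (log2 fold change 0.80, SE 0.09, adjusted p = 2.89e-04, limma), and Ccl9 stood at 0.91. Cxcl1, which attracts neutrophils, had 179, 164 and 144 FPKM in control and 81.2, 99.2 and 95.5 in OGP (log2 fold change -0.81, SE 0.12, adjusted p = 0.00106, limma), and Ccl5 fell by 0.81. In the TNF superfamily 5 were called higher and 3 lower of 19, and the higher count was 2 without OGP replicate 1 and 3 without control replicate 1 or OGP replicate 3. Eda2r, a receptor of ectodysplasin, had 1.12, 0.700 and 0.794 FPKM in control and 3.08, 3.15 and 2.90 in OGP (log2 fold change 1.38, SE 0.13, adjusted p = 1.12e-04, limma). The TNF receptors diverged, with Tnfrsf1a at 58.4, 69.3 and 69.9 FPKM in control and 42.7, 38.2 and 38.1 in OGP (log2 fold change -0.72, SE 0.09, adjusted p = 5.84e-04, limma) and Tnfrsf1b at 18.1, 20.2 and 20.3 FPKM in control and 35.8, 28.6 and 32.7 in OGP (log2 fold change 0.71, SE 0.09, adjusted p = 6.45e-04, limma).

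Matrix genes were called lower across collagens, their crosslinking enzymes and the proteases that remodel them. Lox (ENSMUSG00000024529, chromosome 18 from 52516069 to 52529867 of mm10), the lysyl oxidase that crosslinks collagen and elastin, had 349, 287 and 249.8 FPKM in control and 73.1, 80.3 and 76.2 in OGP (log2 fold change -1.93, SE 0.15, adjusted p = 5.02e-05, limma). Col1a1, the main fibrillar collagen chain here, had 622, 935 and 775 FPKM in control and 421, 355 and 373 in OGP (log2 fold change -1.005, SE 0.15, adjusted p = 0.00130, limma). The collagen VI genes Col6a1, Col6a2 and Col6a3 fell by 0.93, 0.96 and 1.30 in log2 terms, and Col5a1 and Col12a1 by 0.88 and 0.85. Col3a1 alone among the 24 genes of the list was called higher, with 45.6, 48.6 and 48.8 FPKM in control and 81.8, 81.6 and 82.4 in OGP (log2 fold change 0.78, SE 0.11, adjusted p = 9.59e-04, limma), against 8 lower. Of 32 MMP, ADAM, ADAMTS and TIMP genes 11 were called lower and 2 higher, with a median of -0.35. Timp1, an inhibitor of metalloproteinases, had 206, 278 and 268 FPKM in control and 93.3, 101 and 102 in OGP (log2 fold change -1.33, SE 0.11, adjusted p = 7.82e-05, limma). Mmp14, a membrane-bound protease, had 27.3, 30.5 and 29.1 FPKM in control and 17.7, 15.8 and 16.1 in OGP (log2 fold change -0.79, SE 0.08, adjusted p = 1.71e-04, limma), and Adamts4, which cuts aggrecan, had 4.13, 4.09 and 4.24 FPKM in control and 1.65, 1.31 and 1.34 in OGP (log2 fold change -1.27, SE 0.10, adjusted p = 4.74e-05, limma). Proteases and their inhibitors thus lay below control side by side. Adamts6 and Adamts7 were the 2 called higher, at 0.77 and 0.67. Among 12 integrins, Itga5, the fibronectin receptor chain, fell by 0.77 and Itgb7 rose by 0.73, with 2 called in each direction. Of 9 keratin and cornified envelope genes, Sprr1a and Sprr2e were called lower (-3.54 and -2.95) and 0 higher.

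Detoxification genes tended the other way. Of 51 genes of glutathione and thioredoxin 8 were called higher and 2 lower, 15.7% higher against 6.38% of all genes, and 13 were called higher without OGP replicate 1. Mgst3, a membrane-bound glutathione transferase, had 9.34, 14.7 and 14.02 FPKM in control and 36.0, 43.9 and 40.3 in OGP (log2 fold change 1.64, SE 0.16, adjusted p = 1.43e-04, limma). Gstm1 had 45.7, 42.5 and 40.5 FPKM in control and 80.6, 86.8 and 89.9 in OGP (log2 fold change 0.99, SE 0.08, adjusted p = 6.37e-05, limma), and Mgst1, Gsta4 and Gsto1 rose by 0.99, 0.75 and 0.71 on the log2 scale. The glutathione peroxidases diverged. Gpx4, which repairs lipid peroxides, had 191, 236 and 205 FPKM in control and 299, 341 and 355 in OGP (log2 fold change 0.65, SE 0.10, adjusted p = 0.00199, limma), a call lost under quantile normalization, and Gpx1, which removes hydrogen peroxide, had 154, 212 and 173 FPKM in control and 99.5, 104 and 114 in OGP (log2 fold change -0.75, SE 0.11, adjusted p = 0.00158, limma). Among AHR targets and aldehyde dehydrogenases, 3 were called higher and 1 lower of 17. The genes called higher were Aldh3a1 (3.30), Aldh3b1 (0.85) and Nqo1 (0.74), a quinone reductase. The receptor gene itself, Ahr, had 21.5, 18.0 and 17.1 FPKM in control and 10.6, 10.6 and 10.4 in OGP (log2 fold change -0.80, SE 0.11, adjusted p = 8.95e-04, limma). Aox1, an aldehyde oxidase, had 0.639, 0.488 and 0.594 FPKM in control and 3.39, 2.73 and 2.79 in OGP (log2 fold change 1.69, SE 0.14, adjusted p = 7.82e-05, limma). Of 25 genes of iron handling 1 was called higher and 1 lower, and of 24 genes of nitric oxide, arginine and polyamines 1 and 3.

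Translation genes showed little beyond the ribosome itself. Of 37 proteasome subunits only Psmb10, of the immunoproteasome, was called, with 43.7, 62.7 and 66.8 FPKM in control and 107, 114 and 121 in OGP (log2 fold change 0.995, SE 0.14, adjusted p = 0.00113, limma). Cytosolic chaperones and the heat shock response gave 1 higher and 2 lower of 53, and Hspa1a, the inducible HSP70, was not called (-0.36, adjusted p = 0.235, limma). Npm1, a nucleolar chaperone, had 308, 286 and 283 FPKM in control and 426, 479 and 491 in OGP (log2 fold change 0.67, SE 0.09, adjusted p = 6.16e-04, limma), a call lost under quantile normalization. Of 30 splicing proteins 1 was called higher, Srsf5, with 42.2, 49.5 and 47.4 FPKM in control and 76.5, 81.0 and 81.6 in OGP (log2 fold change 0.78, SE 0.08, adjusted p = 2.13e-04, limma), and 2 lower. Host genes of small nucleolar RNAs, noncoding transcripts whose introns yield these RNAs, had 9 of 15 called higher and 0 lower, 60% against 6.38%, with a median of 0.63, and 14 were higher and 0 lower at an unadjusted limma p under 0.05 alone. Gas5 had 23.5, 23.1 and 23.8 FPKM in control and 41.5, 40.7 and 45.5 in OGP (log2 fold change 0.85, SE 0.09, adjusted p = 2.59e-04, limma). Snhg15 had 5.82, 7.16 and 6.10 FPKM in control and 12.3, 12.1 and 13.7 in OGP (log2 fold change 0.95, SE 0.15, adjusted p = 0.00198, limma), and Snhg8 rose by 0.81 on the log2 scale. Without OGP replicate 3 the count was 5. Such host transcripts are known to begin with an oligopyrimidine tract like that of ribosomal protein genes. Ribosomal protein genes took 3.99% ± 0.506 (SD, n = 3) of the reads in control and 5.45% ± 0.297 in OGP (exact permutation test, two-sided p = 0.1, the smallest that 3 against 3 allows).

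Noncoding genes were called higher more often than lower in nearly every class. Long intergenic RNAs gave 47 higher and 5 lower of 262, antisense transcripts 25 and 8 of 261, processed transcripts 19 and 2 of 125 and small nucleolar RNAs 13 and 1 of 128, while small nuclear RNAs gave 1 and 2 of 69 and protein-coding genes 614 and 708 of 11003. The medians of these noncoding classes, 0.18 to 0.42, stayed above 0 under quantile normalization, median centring and voom. All 32462 nuclear gene IDs not labelled protein coding, pseudogenes included, took 1.84% ± 0.0291 (SD, n = 3) of the reads in control and 2.07% ± 0.0286 in OGP (exact permutation test, two-sided p = 0.1). Pseudogenes can share reads with their parent genes, and their part in this rise was not tested. RNA was selected by its poly(A) tail and strand was not stated to be kept, so small nucleolar RNAs and antisense transcripts can share reads with their host or partner genes. Snord34 lies in Rpl13a, and it was listed with 1 to 4 reads or none in a library. The long intergenic RNA gene Gm49439 had 0.214, 0 and 0 FPKM in control and 1.32, 1.98 and 1.84 in OGP, near 0 in control. In the other direction A930006I01Rik, of the same class, had 1.39, 1.59 and 1.57 FPKM in control and 0.0453, 0.0548 and 0.0551 in OGP, near 0 in OGP.

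The same classes hold short genes, and calls followed gene length. In the shortest decile of protein-coding genes 129 of 1101 were called higher and 52 lower, with a median of 0.15. In the longest decile 22 were called higher and 91 lower, with a median of -0.12. Individual libraries differed in this respect also without treatment. The shortest decile minus the longest, as the median log2 difference from the other control libraries, was -0.45, 0.37 and 0.08 in control replicates 1 to 3, and 0.19, 0.30 and 0.40 in OGP replicates 1 to 3 against all controls. The values of OGP libraries overlapped those of the controls, and the part of length in the calls of ribosomal, respiratory chain and host genes was not tested.

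**Figure D5:**
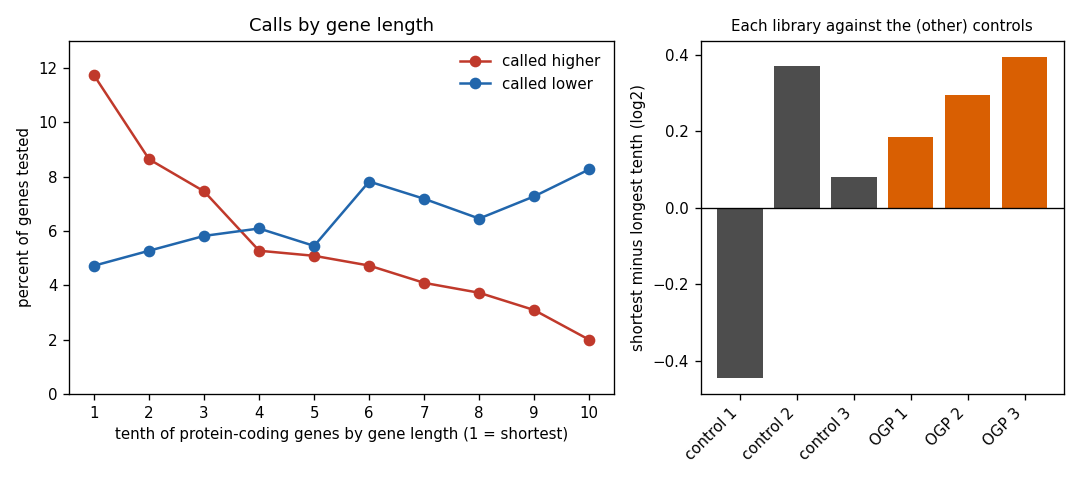
Left, percent of protein-coding genes called higher (red) or lower (blue) in OGP by decile of gene length, from 11.7% higher in the shortest to 8.27% lower in the longest. Right, median log2 value of the shortest decile minus that of the longest in each library relative to the mean of the controls (for a control, of the other 2), where control replicates span -0.45 to 0.37 and OGP replicates 0.19 to 0.40.

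Transcription factors were called lower more than higher in several families. Helix-loop-helix factors had 9 lower and 2 higher of 38, homeobox factors 8 and 1 of 56, ARID factors 5 and 0 of 13 and forkhead factors 4 and 0 of 23, whereas bZIP factors had 5 in each direction of 39. Among 291 zinc finger genes named Zfp the counts were 12 lower and 7 higher, both below the share of all genes. The higher count was 21 without control replicate 1, 4 without control replicate 3 and 4 without OGP replicate 3. Among factors called lower, Vdr, the vitamin D receptor, had 26.6, 26.4 and 25.7 FPKM in control and 8.41, 8.40 and 7.07 in OGP (log2 fold change -1.66, SE 0.09, adjusted p = 5.05e-06, limma). Factors called higher included Hmga2, a chromatin protein of embryonic and tumour cells, with 4.20, 2.92 and 3.34 FPKM in control and 12.9, 10.9 and 13.2 in OGP (log2 fold change 1.69, SE 0.14, adjusted p = 6.37e-05, limma), Xbp1, a carrier of the unfolded protein response, at 0.83, and the nuclear receptor gene Nr1h4, at 1.13. Of 22 genes of the circadian clock 2 were called higher and 3 lower, and voom on recovered reads called 6 higher. Nfil3, a repressor within the clock, had 28.4, 31.2 and 26.9 FPKM in control and 12.3, 12.1 and 14.8 in OGP (log2 fold change -1.12, SE 0.09, adjusted p = 7.85e-05, limma).

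Neural gene groups were sparsely expressed. Only 14 of the 124 neurotransmitter receptor genes and 30 of the 177 voltage-gated and TRP channel genes passed the filter. Of the channels 7 were called lower and 1 higher. Cacna1g, a T-type calcium channel, had 7.50, 8.26 and 8.86 FPKM in control and 4.12, 3.72 and 3.18 in OGP (log2 fold change -1.06, SE 0.10, adjusted p = 1.71e-04, limma), Kcnab3, a potassium channel subunit, stood at -1.33, and the background potassium channel gene Kcnk2 rose by 1.16, with 0.521, 0.465 and 0.435 FPKM in control and 1.65, 1.41 and 1.99 in OGP. Kcnk2 overlaps the processed pseudogene Pdcd5-ps on the same strand, with a mean of 93.2 reads a library against 455 for Pdcd5-ps. Of the receptors, 2 were called higher and 3 lower. Chrnb1, a subunit of the muscle nicotinic receptor, had 0.520, 0.605 and 0.829 FPKM in control and 6.55, 6.17 and 6.34 in OGP (log2 fold change 2.58, SE 0.13, adjusted p = 5.05e-06, limma), and the adenosine and adrenergic receptor genes Adora2b and Adra1b fell by 1.249 and 1.16 on the log2 scale. Neurotrophic genes gave 3 higher and 2 lower of 12. Artn, a ligand of the GDNF family, had 2.62, 2.62 and 3.29 FPKM in control and 9.14, 8.53 and 10.3 in OGP (log2 fold change 1.56, SE 0.11, adjusted p = 4.04e-05, limma), while Gfra1, the coreceptor of GDNF, had 5.46, 5.16 and 5.54 FPKM in control and 1.19, 1.15 and 1.12 in OGP (log2 fold change -1.83, SE 0.09, adjusted p = 4.94e-06, limma). Manf, an ER-resident trophic factor, rose by 1.07, and Bdnf was not called (-0.31). Axon guidance genes gave 3 higher and 6 lower of 40. Sema3e, a repellent, had 3.76, 3.30 and 3.46 FPKM in control and 7.79, 7.30 and 7.65 in OGP (log2 fold change 1.01, SE 0.09, adjusted p = 9.17e-05, limma), and the ephrin receptor gene Ephb4 fell by 0.75. Outside the lists, Nrn1, which promotes neurite growth, had 27.1, 23.7 and 26.9 FPKM in control and 6.24, 6.22 and 6.15 in OGP (log2 fold change -1.98, SE 0.10, adjusted p = 5.05e-06, limma), and Draxin, a guidance molecule, had 3.27, 3.49 and 3.15 FPKM in control and 0.175, 0.258 and 0.284 in OGP (log2 fold change -2.37, SE 0.13, adjusted p = 8.58e-06, limma). Both overlap a gene on the other strand, Fars2 and Mad2l2.

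The remaining genes with large folds belonged to several functions. Among those called higher, Vcam1, a leukocyte adhesion molecule, had 1.74, 1.28 and 1.58 FPKM in control and 5.65, 6.41 and 6.34 in OGP (log2 fold change 1.71, SE 0.12, adjusted p = 3.13e-05, limma), and Tmsb4x, the actin-binding thymosin beta-4, had 45.7, 48.7 and 38.1 FPKM in control and 110.4, 140.2 and 149.8 in OGP (log2 fold change 1.58, SE 0.13, adjusted p = 7.82e-05, limma). Fcgr4 and Ifitm1, an Fc receptor and an antiviral membrane protein gene, stood at 1.65 and 1.64, and Mme, the peptidase neprilysin, at 1.54. Tgtp1, an interferon-induced GTPase, stood at 1.63 and overlaps Gm12185 on the same strand. Rps27a had 90.3, 131 and 109 FPKM in control and 320.3, 368 and 384 in OGP (log2 fold change 1.71, SE 0.33, adjusted p = 0.00477, limma) and, like other ribosomal protein genes, has pseudogenes that could share reads. Among those called lower, S1pr1, a receptor of sphingosine-1-phosphate, had 16.8, 16.0 and 13.9 FPKM in control and 2.74, 3.09 and 2.94 in OGP (log2 fold change -2.23, SE 0.14, adjusted p = 1.94e-05, limma). Shc2, an adaptor of receptor tyrosine kinases in neurons, had 3.65, 4.53 and 4.55 FPKM in control and 0.242, 0.349 and 0.249 in OGP (log2 fold change -2.60, SE 0.13, adjusted p = 4.51e-06, limma), and Rprm, an inhibitor of the cell cycle, had 5.81, 9.97 and 9.47 FPKM in control and 1.42, 1.254 and 1.14 in OGP (log2 fold change -2.30, SE 0.19, adjusted p = 7.85e-05, limma). Ankrd55, Mfsd13a, Asb5 and Ankrd34a fell by 2.47, 2.34, 2.05 and 1.94 on the log2 scale. By FPKM rather than fold, the highest gains among called genes outside mitochondrial and ribosomal genes were those of Lgals1, the lectin galectin-1, with 1274, 2132 and 1918 FPKM in control and 3278, 3616 and 3445 in OGP (log2 fold change 0.99, SE 0.19, adjusted p = 0.00478, limma), and of S100a6, a calcium-binding protein gene (0.64), calls lost in 1 and 4 alternatives. Behind Ptx3, Col1a1, Ldha and Pgk1, the largest losses among called genes were those of Mif, a secreted inflammatory factor, with 598, 996 and 900.3 FPKM in control and 509, 459 and 505 in OGP (log2 fold change -0.73, lost in 4 alternatives), and of Sparc, a collagen-binding matrix protein, with 589, 630.5 and 560.5 FPKM in control and 334, 332 and 326 in OGP (log2 fold change -0.84, SE 0.09, adjusted p = 3.15e-04, limma).

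The labelled hippocampal origin was checked against marker genes, and the defining neuronal ones were mostly absent. Of 19 neuron markers, 13 were under 0.1 FPKM in every library, among them Rbfox3, Dcx, Grin1 and Stmn2, and the summed level was 8.25 to 10.8 FPKM in control and 12.7 to 13.7 in OGP, most of it Tubb3 (not called, 0.43), followed by Map2 (1.67, 1.06 and 1.23 FPKM in control and 1.95, 2.45 and 1.98 in OGP, log2 fold change 0.54, adjusted p = 0.0231, limma, short of the fold threshold). The 8 mesenchymal markers summed to 1523 to 1878 FPKM in control and 1136 to 1223 in OGP, with 1 called higher and 3 lower. Astrocyte markers summed to 38.6 to 44.98 FPKM in control and 19.1 to 20.4 in OGP, mostly Gja1 and Slc1a3, and Slc1a2 and Aqp4 were under 0.1 FPKM in every library. Pecam1, Kdr, Vwf, Tek and Cldn5 of endothelium, P2ry12, Cx3cr1, Ptprc and Itgam of microglia, and Olig1, Olig2, Sox10 and Mag of oligodendrocytes were under 0.1 FPKM throughout.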

How the data were processed

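HT22 libraries of control, OGP and OGE cells, 3 each, were sequenced in paired ends from poly(A)-selected RNA. RNA came from TRIZOL according to the paper and from an RNeasy kit according to the labels. The authors filtered the reads, mapped them to mm10 with HISAT2 2.0.5 (build from the submitters' processing notes) and counted them per gene with featureCounts. The deposited values are FPKM that the authors computed from those counts, by a tool not given in the sources used here. Depth was recovered as FPKM times gene length in whole multiples of a step, to within 0.1 for 100% of values. Genes averaging 0.5 FPKM or more were fitted with limma 3.58.1 (R 4.3.3, trended prior variance) on log2(FPKM + 0.5), 9 libraries in 3 groups, which understates folds of genes near the pseudocount. Calls needed an adjusted p of at most 0.05 over all genes tested and a fold of at least 1.5. Each SE belongs to the fitted log2 difference.

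Members and lists were chosen with earlier results of these data known. Genes to name were drawn by rule from the protein-coding genes of ranks 11 to 30 by fold (ranks 1 to 10 where in a list), the largest FPKM differences among genes called, factors by p, noncoding genes by fold, and up to 5 called members by p of each of 46 lists. Not all of these are printed, and other members named were chosen after their values were seen. The protein-coding genes ranked by fold also had to have no overlap between OGP and control values, so this trait was fixed by their choice. A further list and some genes are not reported here. Shares of reads were compared by an exact two-sided permutation test. The fit was tested on simulated data with known changes. The alternatives were other pseudocounts, filters, fold thresholds, scalings, a robust prior, 6 libraries alone, protein-coding genes alone, a replicate block, voom on recovered reads, and leaving out each library or the pair that lies apart, control replicate 1 and OGE replicate 3. Control and OGP libraries with the same number did not deviate together.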

Additional observations from a re-analysis of the deposited data

How the results depend on the processing

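The 845 genes called higher and 760 called lower became 1828 and 2113 with no fold threshold and 231 and 205 at a fold of 2. Leaving out 1 library at a time gave 669 to 980 higher and 670 to 932 lower. Quantile normalization gave 735 higher and 783 lower, median centring 965 and 656, voom on recovered reads 1048 and 889, and a pseudocount of 1 gave 672 and 629. Without control replicate 1 and OGE replicate 3 the counts were 1016 and 951. Of all 1605 calls, 957 were not lost in any of the 19 alternatives that kept the fold threshold. The same held for 274 of 385 genes named by rule, with 0 reversed. A gene that an alternative did not test was counted as not lost, such as a noncoding gene in the fit of protein-coding genes alone. The most calls among the named genes, 58, were lost without OGP replicate 3. The replicate block gave 822 higher and 759 lower. Same-numbered control and OGP libraries had correlations of deviations of -0.18, -0.05 and -0.11. Between control and OGE these were 0.14, -0.12 and 0.32. Such values cannot show whether libraries with the same number were prepared together. The share of reads in the 100 most abundant genes rose by 1.61 percentage points, by 0.588 among nuclear genes only (exact permutation test, p = 0.2) and by 0.653 for the 10 most abundant genes, of which the 7 nuclear ones changed by -0.289 points. That of noncoding genes, pseudogenes included, rose by 0.234 points, and by 0.266 among nuclear genes only. Mitochondrially encoded genes took 1.62% ± 0.620 (SD, n = 3) of the reads in control and 2.90% ± 0.406 in OGP. That was a rise of 1.27 points (exact permutation test, two-sided p = 0.1). The cause of these shifts was not tested. With 3 libraries a group the exact test cannot go below p = 0.1, and genes near 0.5 FPKM rest on few reads, so that a change in them may not have been detectable at this depth.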

Other observations

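Groups of genes by the stem of their symbol, looked at after their values were seen, added to the picture. Of 36 genes named Map, mostly kinases of the MAP kinase cascade and microtubule-associated proteins, 8 were called lower and 0 higher, with a median log2 fold change of -0.32, and of 28 kinesin genes named Kif 4 were called lower and 0 higher. Of 67 genes named Ccdc 10 were called higher and 2 lower. Groups with no call in either direction by limma included 32 genes named Rbm (RNA-binding proteins), 32 named Vps (endosomal sorting), 18 named Nup (nuclear pore) and 17 named Rad. Unprocessed pseudogenes had 13 called higher and 1 lower of 58, and processed pseudogenes 67 and 21 of 872, and both kinds can share reads with their parent genes.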
